A study of Homo sapiens with 17 samples.

Results

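The zinc finger genes of chromosome 19 were taken as every probe whose array symbol is ZNF followed by a number, with or without 1 letter, and whose gene the reference gene table places on that chromosome. This gave 318 of the 47323 probes and 230 of the 20047 genes with a gene number on the array, and 253 of these probes, from 194 genes, were bright enough to be tested among 28394 tested probes. The reference table lists 263 such genes, and those without a probe were not analysed here. The members held 6 probes of pseudogenes, and 70 genes had more than 1 probe.

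Most of these genes encode KRAB zinc finger proteins. Their zinc fingers read DNA sequence and the KRAB domain recruits the corepressor TRIM28 (KAP1), which brings the H3K9 methyltransferase SETDB1, HP1 proteins and histone deacetylases to the bound site, often a retrotransposon. The genes arose by repeated tandem duplication and lie in dense clusters along the chromosome, and the bodies of many of them are themselves known to carry H3K9me3.

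RNA levels came from Illumina HumanHT-12 bead arrays, run on 6 established human acute myeloid leukemia (AML) cell lines. MV-4-11, TF-1 and MOLM-14 are the sensitive lines and KG-1a, THP-1 and Mono-Mac-1 the resistant ones, as the series places them by their apoptotic response to D9. Each line gave 1 untreated array, 1 array after 48 h with D9 at 1 µM and, except for MV-4-11, 1 array after 48 h with D9 at 5 µM, for 17 arrays in all. D9 is an analog of 3-deazaneplanocin A (DZNep), a compound that lowers histone lysine methylation. In the study's western blots of MOLM-14 and KG-1a, D9 lowered H3K27me3 and H4K20me3 but changed H3K9me2 and H3K9me3 little. TF-1 alone was grown with IL-3. No line had a repeated array, so each line counted as 1 replicate and the p-values measure the spread between lines. Lines of different origin stand for different tumors, and the spread between them includes all that sets them apart.

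The line identities were checked against markers. SPI1, the myeloid master factor, was above the filter level on all 6 untreated arrays, but in KG-1a it was below CD79A, a marker of another cell type. The myeloid genes MPO, CSF1R, CD14 and ITGAM were near the filter level in KG-1a, at no more than 6.61. CD34 was at a log2 level of 11.64 in TF-1 and 13.21 in KG-1a and between 6.17 and 6.44 elsewhere. GATA1, an erythroid factor, was at 8.60 in TF-1 and between 6.03 and 6.19 elsewhere. GATA2 was highest in TF-1 and KG-1a, at 11.39 and 8.65. KIT was at 8.51 in TF-1, 7.47 in MV-4-11 and 6.36 in KG-1a. FLT3, listed with these progenitor genes, went the other way. It was below the filter level in TF-1 and KG-1a and between 7.67 and 10.77 elsewhere. LYZ, the lysozyme gene of monocytic cells, was at 6.04 in KG-1a and between 8.94 and 14.11 in the other lines. Of 5 markers of other cell types, PECAM1 (7.74 to 10.29, and also a gene of myeloid cells), CD79A (6.55 to 6.90) and COL1A1 (6.18 to 6.62) were above the filter level on all 6 arrays, EPCAM on 3 and CD3E on 1. The best probe of PTPRC, which encodes CD45, was above the filter level on only 3 of the 6 arrays. Raw array medians lay between 53.9 and 67.4 intensity units. The lowest raw value was 30.2 to 35.4 on the arrays of TF-1 and THP-1 and 0 to 14.4 on those of the other 4 lines. In MV-4-11 it was 14.4 with D9, against 0 untreated. The part of these floors in the levels and in the D9 effects was not tested.

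Levels below are log2 values after background correction and quantile normalization. The filter level, above which the mean of a probe had to lie to be tested, was 6.16. The D9 effect of a line is the mean level of its D9 arrays minus its untreated array, on the log2 scale, and for MV-4-11 it rests on the 1 µM array alone. A probe is called where limma gave an adjusted p (Benjamini-Hochberg over all 28394 tested probes) under 0.10.

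Promoters are given for ZNF565, ZNF256 and ZNF17, which among the genes called after D9 in the same direction in every line had the largest effects. ZNF788P, the next of these by size, has no entry in the promoter table. The 250 bases before the RefSeq start site on GRCh38.p14 read as below, 5′ to 3′, and for ZNF565 the first of its 3 listed windows is shown. Capitals mark the letters CCGGAAGT of the ETS family on either strand, the only match to the motifs searched in these windows.
ZNF565, chr19:36215085-36215334, minus strand: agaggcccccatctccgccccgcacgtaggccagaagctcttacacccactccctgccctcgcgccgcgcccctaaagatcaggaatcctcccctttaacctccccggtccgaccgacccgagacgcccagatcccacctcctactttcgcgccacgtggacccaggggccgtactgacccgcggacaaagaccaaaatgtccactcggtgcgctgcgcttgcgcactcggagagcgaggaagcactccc
ZNF256, chr19:57947707-57947956, minus strand: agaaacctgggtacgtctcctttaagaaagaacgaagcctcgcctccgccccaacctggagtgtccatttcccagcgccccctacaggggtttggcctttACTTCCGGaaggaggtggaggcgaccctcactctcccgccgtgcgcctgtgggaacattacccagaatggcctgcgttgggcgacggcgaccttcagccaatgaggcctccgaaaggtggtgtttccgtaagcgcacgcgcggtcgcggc
ZNF17, chr19:57410911-57411160, plus strand: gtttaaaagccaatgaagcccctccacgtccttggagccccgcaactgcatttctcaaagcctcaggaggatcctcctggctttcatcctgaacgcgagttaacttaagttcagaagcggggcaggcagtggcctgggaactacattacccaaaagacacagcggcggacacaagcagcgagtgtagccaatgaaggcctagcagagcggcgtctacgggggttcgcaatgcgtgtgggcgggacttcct

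The 300-base windows from 250 bases before to 50 after each start were available for 199 of the 230 genes, in 251 windows. The ETS letters CCGGAAGT, on either strand, were in 17.5% of these windows, against 4.14% of all 35116 promoter windows, 4.62% of those of other chromosome 19 genes and 12.2% of those of ZNF-number genes on other chromosomes. The NFY letters CCAATCA were in 23.1% of them, against 6.95% of all windows. The letters of SP1 (GGGGCGGGG) were in 21.1% against 15.7%, of YY1 (AAGATGGCG) in 3.19% against 1.75%, of NRF1 (GCGCATGCG) in 3.59% against 1.92% and of CRE (TGACGTCA) in 3.98% against 1.85%. Other chromosome 19 genes held NFY in 8.22% of windows, SP1 in 23.2%, YY1 in 3.0%, NRF1 in 3.6% and CRE in 2.88%. In ZNF-number genes elsewhere the shares were 13.5%, 18.4%, 2.43%, 4.17% and 3.12%, in the same order. SP1 was thus more frequent in other chromosome 19 genes than in the members, and NRF1 was not higher in the members than in either set. The member windows held a median of 20 CpG and 60.3% GC, against 14 and 58.7% over all windows. In ZNF-number genes elsewhere they were 23 and 62.3%. The ETS letters were in 3 of 14 windows of the genes called higher after D9 and in 2 of 7 windows of the genes called lower, and in ZNF85 the NFY letters stood at 81 and again at 52 bases before the start. These are letter matches, and no binding was measured.

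In untreated cells, more of the chromosome 19 ZNF probes were above the filter level in KG-1a than in any other line. On the KG-1a array 277 of the 318 probes, 87.1%, were above the filter level, against 248 in MV-4-11 and 213, 67.0%, in MOLM-14. The others were at 77.0% in TF-1, 72.0% in THP-1 and 70.1% in Mono-Mac-1. Over all probes the share was 58.6% to 58.7% on every untreated array, since the arrays share 1 distribution after quantile normalization. ZNF-number probes on other chromosomes lay between 70.1% and 74.7%, with KG-1a at 74.2%, and other chromosome 19 probes between 63.2% and 66.6%, with KG-1a lowest. The high share of KG-1a was thus seen for neither comparison set, and with 1 untreated array a line it has no replicate check. The KG-1a arrays with 1 and 5 µM D9 were at 85.8% and 84.6%, but they are not replicates of the untreated array.

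**Figure D1:**
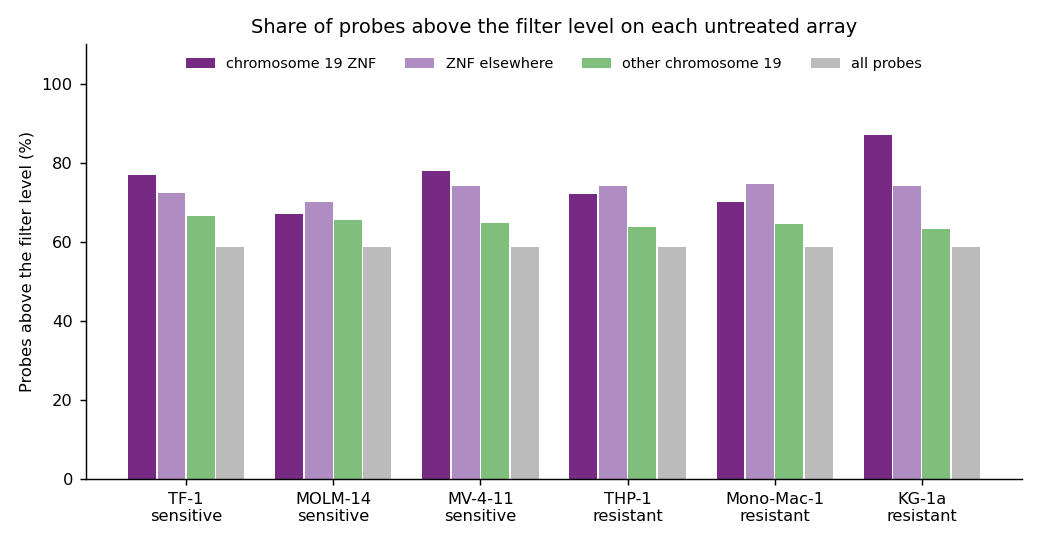
Share of probes above the filter level (y axis, percent) on the untreated array of each cell line (x axis), for the chromosome 19 ZNF probes, ZNF-number probes on other chromosomes, other chromosome 19 probes and all probes. The chromosome 19 ZNF probes reach 87.1% in KG-1a and 67.0% in MOLM-14, while all probes stay near 58.7%.

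The lines also differed in which of them held the extremes. Among the 253 tested probes, MV-4-11 was the lowest of the 6 lines for 11 and KG-1a for 13, whereas TF-1 was the lowest for 77 and MOLM-14 for 74. KG-1a was thus lowest for 5.14% of these probes, against 16.5% of all tested probes, and MV-4-11 for 4.35%, against 11.3%. MV-4-11 was highest for 68 and KG-1a for 65, or 26.9% and 25.7%, against 13.1% and 19.1% of all tested probes. For ZNF-number probes elsewhere, KG-1a was lowest for 14.9%, MV-4-11 for 6.57% and TF-1 for 32.2%, against the members' 30.4% in TF-1, and MV-4-11 was lowest for 7.39% of other chromosome 19 probes. A low count for MV-4-11 and a high one for TF-1 were thus shared with ZNF-number probes elsewhere. The median range between the 6 lines was 0.93, against 0.85 over all tested probes, and 26 members, 10.3%, spanned at least 2 log2 units, against 14.1% of all tested probes.

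Among the 10 members with the widest range, several were near the filter level in some lines and well above it in others. ZNF544 was at 6.42 in Mono-Mac-1 and between 8.61 and 10.04 in the other 5 lines. ZNF91, which in human pluripotent cells binds SVA retrotransposons, was at 6.26 in MOLM-14 and 6.52 in Mono-Mac-1 and between 8.67 and 9.32 in the other 4. ZNF256 was at 5.83 in MOLM-14 and 5.80 in Mono-Mac-1, against 7.58 to 8.71 elsewhere. MOLM-14 and Mono-Mac-1 were thus the 2 low lines for both genes, and they were also the 2 lowest for ZNF329, ZNF285 and ZNF681. ZNF626 was the reverse case, at 8.90 in KG-1a and between 5.96 and 6.49 in the other 5 lines, and KG-1a was also highest on 3 of the 4 other ZNF626 probes, at 7.82 to 8.32. ZNF30 was at 9.02 in TF-1, 8.19 in KG-1a and 6.73 in THP-1, and no more than 6.08 in the rest. ZNF788P, a pseudogene by the reference table, was at 6.29 in MV-4-11 and 7.48 in MOLM-14, against 8.52 to 9.03 in the other 4.

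**Figure D2:**
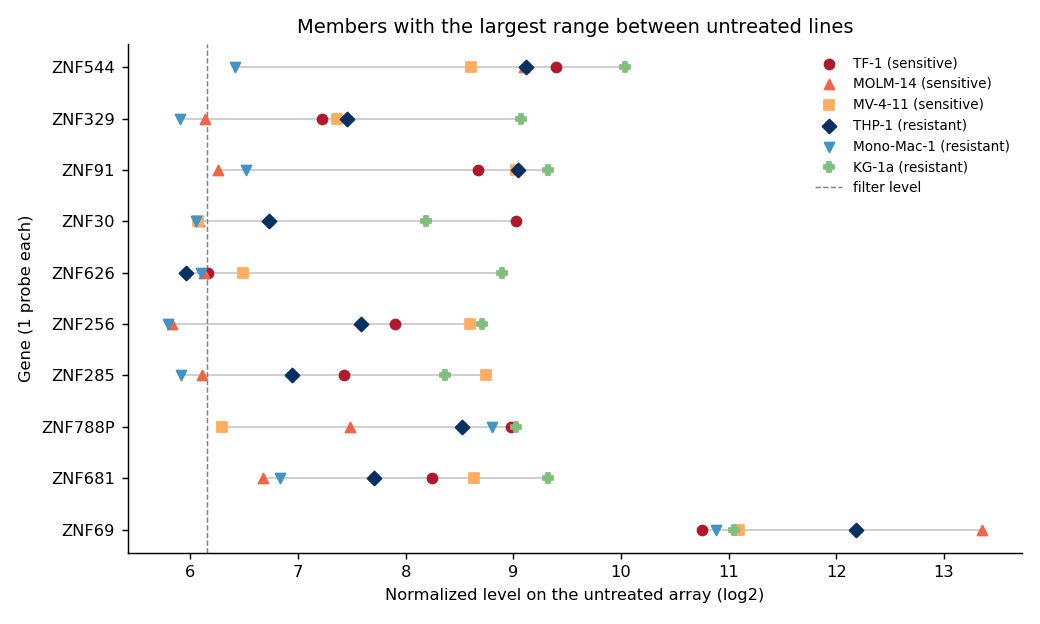
Normalized log2 level on the untreated array (x axis) of the 10 members with the largest range between lines (rows), with 1 point for each cell line and the filter level as a dashed line. KG-1a is the highest line for 7 of the 10, and ZNF626 stands at 8.90 in KG-1a and at no more than 6.49 in the others.

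The sensitive lines were set against the resistant lines to ask whether starting levels went with the response. None of the 253 members was called, as was no probe of the array (0% of 28394). At an unadjusted p under 0.05 (limma) there were 2 members, 0.791%, against 2.11% of all tested probes. The members with the smallest p were ZNF559 and ZNF69. ZNF559 was at 8.48 in MV-4-11, 7.69 in TF-1 and 8.27 in MOLM-14, against 9.40 in KG-1a, 8.71 in THP-1 and 8.82 in Mono-Mac-1, a difference of -0.83 ± 0.29 (SE, 3 against 3 lines, limma adjusted p = 1.0). This probe was picked by its p for the same difference, so the lack of overlap between its classes is no separate result. One ZNF69 probe was at -0.62 ± 0.22, and ZNF813, ZNF799 and ZNF175 had differences of -0.34, -0.34 and 0.38.

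After D9 treatment, few of the chromosome 19 ZNF genes moved, and those that did moved in both directions. Over the 6 lines 10 members were called higher and 8 lower, 3.95% and 3.16% of the 253 tested, against 2.79% and 2.81% of all tested probes. The shares were thus close to those of the whole array. Leaving out Mono-Mac-1 left no call in either direction, leaving out MOLM-14 gave 15 higher and 4 lower, and leaving out another line gave 2 to 5 higher and 0 to 4 lower, with none lower without TF-1. The shares over all tested probes changed as well. They were 0.933% higher and 0.863% lower without TF-1, and 1.49% and 1.58% without THP-1. A change in each cell and a change in the mix of cells within a culture cannot be told apart in such bulk RNA. The median D9 effect over the members was 0.0098, against -0.003 over all tested probes, and 54.2% of the members lay above 0, against 49.1%. At an unadjusted p under 0.05 there were 60 members, 23.7%, against 19.1% of all tested probes, 21.5% of ZNF-number probes on other chromosomes and 20.9% of other chromosome 19 probes. ZNF-number probes on other chromosomes gave 15 higher and 4 lower of 289, with a median of 0.016, and other chromosome 19 probes 30 higher and 28 lower of 1069. In all 6 lines alike, 15 members (5.93%) were higher, against 5.54% of all tested probes, and 18 (7.11%) were lower, against 5.90%.

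**Figure D3:**
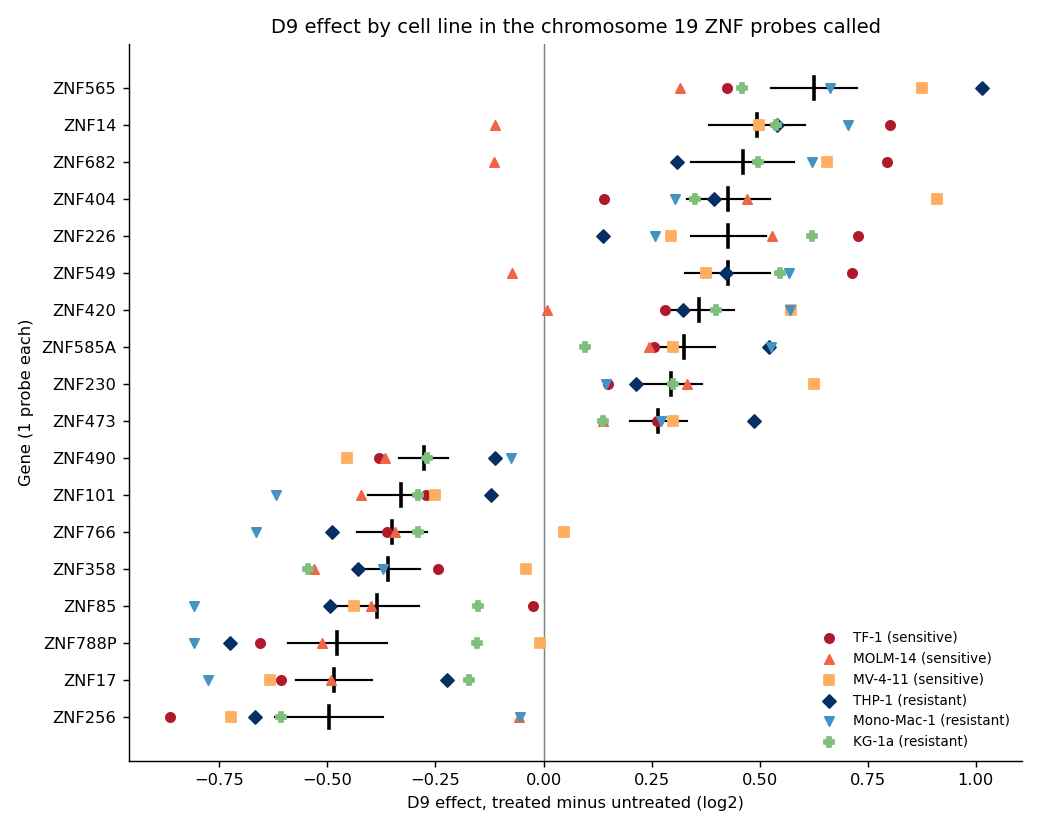
D9 effect (x axis, log2, treated minus untreated) of the 18 members called over the 6 lines (rows), with 1 point for each cell line. The black tick is the mean of the class means and the bar its SE. ZNF565 is the highest at 0.62 and ZNF256 the lowest at -0.50, and ZNF14, ZNF682 and ZNF549 share a MOLM-14 point below 0.

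ZNF565 showed the largest increase. Without D9, with 1 µM and with 5 µM, its level was 6.66, 6.81 and 7.35 in TF-1 and 6.49, 6.74 and 6.86 in MOLM-14. The same 3 arrays gave 6.73, 7.72 and 7.77 in THP-1, 6.82, 7.23 and 7.74 in Mono-Mac-1, and 6.78, 7.0 and 7.47 in KG-1a. In MV-4-11 it was at 7.93 with 1 µM D9, against 7.06 untreated. The level was thus higher at each step of dose in every line. Over the 6 lines the effect was 0.62 ± 0.10 (SE, n = 6, limma adjusted p = 0.0371), and every line was higher, from 0.32 in MOLM-14 to 1.01 in THP-1. A second ZNF565 probe did not follow, at -0.04 ± 0.05 (adjusted p = 0.779).

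ZNF404, ZNF226 and ZNF230 lie within 0.3 Mb of each other in the cluster from ZNF575 to ZNF296, and all 3 rose. The ZNF404 level was 8.30 with D9 in MV-4-11, against 7.40 untreated, and it gained less in the other lines, where the effects were 0.14 to 0.47. Its mean effect was 0.43 ± 0.10 (adjusted p = 0.0705). ZNF226 was at 7.01, 7.56 and 7.90 in TF-1 without D9 and with 1 and 5 µM, at 7.23, 7.63 and 7.89 in MOLM-14 and at 7.94, 8.37 and 8.75 in KG-1a. ZNF226 effects ran from 0.14 in THP-1 to 0.73 in TF-1, with a mean of 0.43 ± 0.09 (adjusted p = 0.0562). A second ZNF226 probe gave 0.37 ± 0.10 (adjusted p = 0.101). ZNF230 averaged 0.29 ± 0.07 (adjusted p = 0.0882), with 0.63 in MV-4-11 and 0.14 to 0.33 in the others. Their neighbour ZNF224, a KRAB protein known as a repressor of the aldolase A gene, went the other way in all 6 lines, at -0.23 ± 0.07, and was not called (adjusted p = 0.130).

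The other members called higher in all 6 lines were ZNF420, ZNF585A and ZNF473. ZNF420, also named Apak, binds p53 and restrains its apoptotic targets, and its effect was 0.36 ± 0.08 (adjusted p = 0.0737), with MOLM-14 at 0.01 and the other lines between 0.28 and 0.57. ZNF585A rose by 0.32 ± 0.07 on 1 probe (adjusted p = 0.0711), while its other probe was at -0.26 ± 0.07 (adjusted p = 0.102). The 2 probes of ZNF585A thus pointed in opposite directions. ZNF473, or ZFP100, is a part of the U7 snRNP machinery that processes histone pre-mRNA, and it rose by 0.27 ± 0.07 (adjusted p = 0.0858). Its second tested probe gave 0.24 ± 0.09 (adjusted p = 0.182).

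Among the members called lower, ZNF17 and ZNF256 lie 0.5 Mb apart near the end of the long arm. ZNF17 was at 7.53, 6.96 and 6.88 in TF-1 untreated and with 1 and 5 µM D9, and at 8.12, 7.80 and 7.46 in MOLM-14. The series was 7.83, 7.69 and 7.53 in THP-1, 7.74, 7.13 and 6.79 in Mono-Mac-1 and 8.43, 8.39 and 8.13 in KG-1a, and in MV-4-11 the level was 7.42 with 1 µM, against 8.05 untreated. Each line was lower with D9, and lower at 5 than at 1 µM where both were given, with a mean effect of -0.48 ± 0.09 (n = 6, adjusted p = 0.0450). ZNF256 fell by 0.50 ± 0.12 on the log2 scale (adjusted p = 0.0899). Its level without D9 and with 1 and 5 µM was 7.90, 7.13 and 6.94 in TF-1, 7.58, 7.13 and 6.70 in THP-1 and 8.71, 8.24 and 7.97 in KG-1a, and in MV-4-11 it was 7.87 with D9, against 8.59 untreated. Its effects were -0.86, -0.72, -0.67 and -0.61 in TF-1, MV-4-11, THP-1 and KG-1a. In MOLM-14 and Mono-Mac-1 they were -0.06 and -0.05, and there the untreated level was already below the filter level.

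ZNF788P moved least in MV-4-11, where it started lowest and had 1 µM D9 alone. It moved next least, by -0.15, in KG-1a, where it started highest at 9.03. In MOLM-14, which started at 7.48, the effect was -0.51. The ZNF788P level was 8.98, 8.45 and 8.19 in TF-1 without D9 and with 1 and 5 µM, 8.52, 8.03 and 7.57 in THP-1 and 8.80, 8.11 and 7.87 in Mono-Mac-1. Its D9 effects lay between -0.81 and -0.15 in the lines that started above 7.4, and at -0.01 in MV-4-11, which started at 6.29, with a mean of -0.48 ± 0.11 (adjusted p = 0.0812). ZNF85 fell by 0.39 ± 0.10 on the log2 scale (adjusted p = 0.0907), most in Mono-Mac-1 at -0.81 and least in TF-1 at -0.02. ZNF358 averaged -0.36 ± 0.08 (adjusted p = 0.0600), ZNF101 -0.33 ± 0.08 (adjusted p = 0.0740) and ZNF490 -0.28 ± 0.06 (adjusted p = 0.0581), each below 0 in all 6 lines. ZNF766, named after its values were seen because 1 line went against the rest, was at -0.35 ± 0.08 (adjusted p = 0.0738), with 0.05 in MV-4-11 and -0.67 to -0.29 in the others.

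Of the 18 genes called, 7 had a second tested probe. Of these second probes 4 lay on the same side of 0 as the called probe and none was called. Across all members, 47 genes had more than 1 tested probe, and in 23 of them the probes had effects of opposite sign. Probes of 1 gene can read different transcripts, and which transcript each probe reads was not analysed here. Zinc finger paralogs share long stretches of sequence, so a probe may also read a relative of its gene.

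The remaining members called higher were ZNF14, ZNF682 and ZNF549, which were named after their values were seen, since MOLM-14 went against the other 5 lines. Their probes were among the 9 members with a mean level over 11. Another of these was a ZNF430 probe, and over the 17 arrays the probes of ZNF14, ZNF682, ZNF549, ZNF486, ZNF738 and ZNF69 followed it with correlations of 0.935 to 0.963. All 7 were brightest in untreated MOLM-14, where their levels lay between 13.35 and 14.63, and their D9 effects were between 0.10 and 0.84 in the other 5 lines but between -0.32 and -0.05 in MOLM-14. The effects were 0.49 ± 0.11 for ZNF14 (adjusted p = 0.0708), 0.46 ± 0.12 for ZNF682 (adjusted p = 0.0946) and 0.43 ± 0.10 for ZNF549 (adjusted p = 0.0738).

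The other tested probes of the same genes were also below 0 in MOLM-14, at -0.24 to -0.03, and in the other 5 lines they lay between -0.39 and 0.41. Their effects over the 6 lines were at 0.01 for ZNF14, -0.11 for ZNF682, 0.02 for ZNF549, 0.08 for ZNF430 and 0.11 for ZNF69, and none was called. Over the whole array 130 of the 1486 tested probes with a mean level over 11 had a correlation over 0.9 with the ZNF430 probe, 8.75% of them. The count was 7 of the 9 bright members with the ZNF430 probe itself included, and 4 of the 5 bright ZNF-number probes on other chromosomes, so it was not particular to chromosome 19. Without these 7 probes 7 members were called higher and 8 lower of 246, or 2.85% and 3.25%. Over all tested probes without those of a correlation over 0.9 the shares were 2.65% and 2.84%. What the bright probes read was not tested.

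**Figure D4:**
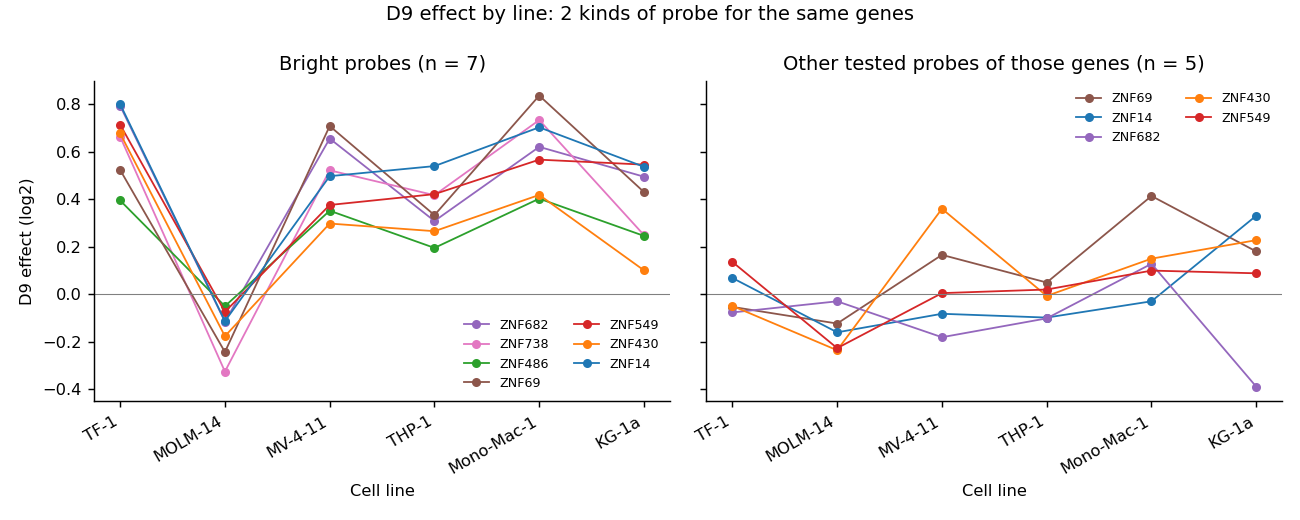
D9 effect (y axis, log2) by cell line (x axis) for the 7 bright member probes that follow each other over the arrays (left) and for the 5 other tested probes of those genes (right). On the left every line but MOLM-14 is above 0, and on the right the 5 probes are below 0 in MOLM-14 and between -0.39 and 0.41 in the other lines.

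By line, the members shifted little. The median D9 effect over the 253 members was 0.061 in MV-4-11, -0.032 in TF-1 and -0.058 in MOLM-14, against 0.049 in KG-1a, 0.019 in THP-1 and 0.040 in Mono-Mac-1. The medians over all tested probes lay between -0.003 and 0.001. In MV-4-11 61.7% of the members were above 0 and in MOLM-14 36.8%, so the 2 ends of this order were both sensitive lines. The quartiles of the members were -0.095 and 0.300 in MV-4-11, while MOLM-14 had -0.187 and 0.063. Over ZNF-number probes on other chromosomes the median was 0.045 in MV-4-11 and 0 in MOLM-14, and over other chromosome 19 probes it was -0.055 in MOLM-14.

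Effects of at least 2-fold were rare, as they were over the whole array. In the D9 effect by line they were 1 ZNF333 probe at 1.07 and ZNF580 at 1.13 in MV-4-11, at 1 µM alone, and ZNF565 at 1.01 in THP-1, over both doses. These genes were named after their values were seen. Such rises were 0.791% of the members in MV-4-11 and 0.395% in THP-1, against 0.884% and 0.574% of all tested probes. At 5 µM Mono-Mac-1 had 7 such members, all higher, led by ZNF223 at 1.58. They were 2.77% of the members, against 1.67% of all tested probes and 2.42% of ZNF-number probes on other chromosomes. These 7 included ZNF69, ZNF682 and ZNF738 of the co-varying bright probes, and also ZNF296, ZNF600 and ZNF160. No member fell 2-fold in the D9 effect of any line, where 0.0563% (KG-1a) to 1.39% (MV-4-11) of all tested probes did. At a single dose the one such fall was ZNF681 in THP-1 with 1 µM, at -1.05. It was 0.395% of the members, against 0.835% of all tested probes. Among members that went 1 way in all 6 lines without passing the threshold, ZNF805 was at 0.33 ± 0.09 (adjusted p = 0.108), 1 ZNF333 probe at 0.27 ± 0.07 (adjusted p = 0.101), ZNF121 at -0.31 ± 0.09 (adjusted p = 0.115) and ZNF383 at -0.29 ± 0.08 (adjusted p = 0.104). This ZNF333 probe is not the one at 1.07 in MV-4-11, which was at -0.41 in THP-1.

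The D9 effect was compared between the sensitive and the resistant lines, since the study asked whether the lines respond with different genes. No member was called, nor any probe of the array (0%). At an unadjusted p under 0.05 (limma) there were 6 members, 2.37%, against 2.65% of all tested probes. ZNF792 had the smallest p. Its effects were -0.21 in MV-4-11 and -0.11 in both TF-1 and MOLM-14, against 0.25 in KG-1a, 0.18 in THP-1 and 0.31 in Mono-Mac-1, a difference of -0.39 ± 0.11 (3 against 3 lines, limma adjusted p = 0.999). ZNF792 was picked by its p for this difference, so the lack of overlap between its classes is no separate result. The difference did not pass the threshold. ZNF573 was at -0.42 ± 0.16, ZNF100 at -0.30 ± 0.12, ZNF568 at -0.28 ± 0.11 and ZNF345 at 0.30 ± 0.12, all with an adjusted p of 0.999.

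By dose, 1 µM D9 alone gave no member called in the 6 lines, with a lowest adjusted p of 0.102 and 49 members, 19.4%, at an unadjusted p under 0.05, against 15.4% of all tested probes. Of all tested probes 0.916% were called higher and 0.856% lower at this dose. At 5 µM, in 5 lines, 5 members were called higher and 5 lower, 1.98% of the 253 each, against 2.36% and 2.64% of all tested probes. The median effect over the members was 0.0136 at 1 µM and 0.0022 at 5 µM. At 5 µM the ZNF565 effect was 0.71 ± 0.09 (n = 5, adjusted p = 0.0317) and ZNF788P was at -0.70 ± 0.13 (adjusted p = 0.0554). Both ZNF226 probes were called at this dose, at 0.63 ± 0.10 and 0.58 ± 0.13. The calls lower were ZNF358, ZNF788P, ZNF490, ZNF766 and ZNF17. The 2 doses share their untreated arrays.

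The direct comparison of 5 with 1 µM does not use the untreated arrays, and it called 1 member, against 0.532% of all tested probes. ZNF296, whose mouse ortholog takes part in reprogramming to pluripotency, was 0.41 ± 0.08 higher at 5 than at 1 µM (n = 5 lines, adjusted p = 0.0713). Its effects at 1 and then 5 µM were 0.20 and 0.70 in TF-1, -0.55 and -0.32 in MOLM-14, 0.43 and 0.59 in THP-1, 0.50 and 1.03 in Mono-Mac-1, and -0.01 and 0.64 in KG-1a. MOLM-14 was the only line below 0 at 5 µM, and the 5 µM array was higher in all 5 lines. The call was lost with median scaling and when TF-1, MOLM-14, Mono-Mac-1 or KG-1a was left out. Over both doses ZNF296 was at 0.36 ± 0.13 and was not called (adjusted p = 0.196). The next smallest p-values were those of ZNF226 at 0.30 ± 0.07, ZNF580 at -0.32 ± 0.07, ZNF490 at -0.33 ± 0.08 and ZNF565 at 0.34 ± 0.08, with adjusted p from 0.109 to 0.149.

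Along the chromosome the 230 genes fell into 16 groups when a gap of over 1 Mb started a new one, and 7 of these held at least 5 tested genes. These 7 clusters held 177 of the 194 tested genes and took 9 of the 10 calls higher and all 8 calls lower, and so most calls lay where most genes lie. The cluster from ZNF575 to ZNF296, at 43.53 to 45.08 Mb, had the highest median effect, 0.104, with 16 of 22 tested genes above 0 and 3 calls higher and none lower. The cluster from ZNF653 to ZNF791, at 11.48 to 12.63 Mb, had the lowest, -0.073, with 4 of 19 genes above 0 and 2 calls lower. The cluster from ZNF565 to ZNF573, at 36.18 to 37.78 Mb, had 3 calls higher and none lower with a median of 0.016. The cluster from ZNF101 to ZNF254, at 19.67 to 24.13 Mb, and that from ZNF628 to ZNF446, at 55.48 to 58.49 Mb, had calls in both directions, 2 higher and 2 lower, and 1 higher and 2 lower. All calls higher in these clusters, ZNF14 and ZNF682 in the first and ZNF549 in the second, came from the co-varying bright probes described above. Without those probes both clusters had calls lower only. As shares of tested probes, the calls were 11.5% of 26 in ZNF575 to ZNF296 and 7.69% of 26 in ZNF653 to ZNF791. They were 9.68% of 31 in ZNF565 to ZNF573, 10.3% of 39 in ZNF101 to ZNF254 and 5.26% of 57 in ZNF628 to ZNF446. Over all tested probes 5.6% were called. The cluster shares rest on at most 4 calls each and are not read as a result about a region.

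**Figure D5:**
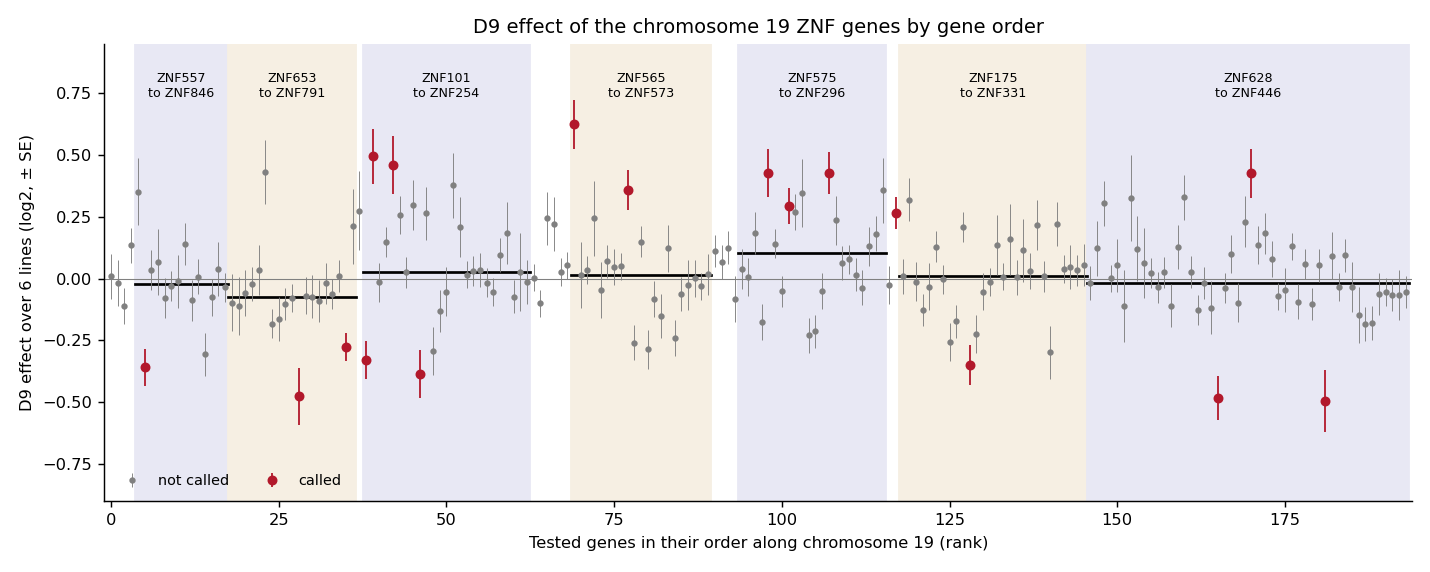
D9 effect over the 6 lines (y axis, log2, with SE) of the 194 tested genes in their order along chromosome 19 (x axis, rank), each by its brightest tested probe. Shading marks the 7 clusters of at least 5 tested genes and black lines their medians, from -0.073 in ZNF653 to ZNF791 to 0.104 in ZNF575 to ZNF296.

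The D9 effects of neighbouring genes were only weakly correlated, as were those of distant ones. The effect of a gene and that of the next tested gene had a correlation of 0.012 across 193 pairs with the brightest probe of each gene, and 0.063 with the mean of its probes. The effects had the same sign in 60.4% of pairs under 0.1 Mb apart and in 49.4% of those over 10 Mb apart, or 55.7% and 49.3% with the mean of probes. Over the 6 lines, the median correlation between the effects of 2 genes was 0.096 for pairs under 0.1 Mb apart, 0.086 from 0.1 to 1 Mb, 0.070 from 1 to 10 Mb and 0.055 beyond. For untreated levels the same medians were 0.278, 0.172, 0.124 and 0.068. All pairs share the same arrays, and genes are not independent replicates. In the cluster from ZNF653 to ZNF791, MOLM-14 and TF-1 had the lowest median effects, -0.205 and -0.148, and in the cluster from ZNF575 to ZNF296 MV-4-11 and THP-1 had the highest, 0.200 and 0.180.

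The clusters also differed in the lines that expressed them least before treatment. In the cluster from ZNF557 to ZNF846 the untreated level of the 14 tested genes in TF-1 lay 0.433 below the gene's median over the 6 lines, by the median over genes, and in the cluster from ZNF175 to ZNF331 it lay 0.345 below. MOLM-14 was lowest in the cluster from ZNF565 to ZNF573, at 0.232 below. Over all tested probes the same measure was -0.017 in TF-1 and 0.002 in MOLM-14. MV-4-11 stood highest in the cluster from ZNF575 to ZNF296, at 0.232.

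Several members with known roles were followed whatever their values. ZNF91 had an effect of 0.19 ± 0.13 (adjusted p = 0.495), from -0.26 in THP-1 to 0.56 in MV-4-11. ZNF93, which represses LINE-1 elements, was at 0.15 ± 0.06 on 1 probe (adjusted p = 0.248), above 0 in all 6 lines, and at -0.18 ± 0.12 on the other. ZNF274, which brings SETDB1 to the 3′ ends of ZNF genes, was between -0.03 and 0.02 on its 3 probes. Its lines differed more, from -0.31 in TF-1 to 0.48 in MOLM-14 on 1 probe and from -0.27 to 0.33 on another. ZNF331, an imprinted gene, lay between -0.08 and 0.05 on 3 probes. Its line values reached 0.52 in TF-1 on 1 probe and -0.55 in THP-1 on another. ZNF160, a repressor of TLR4, was at 0.22 ± 0.10 and 0.10 ± 0.09 on 2 tested probes. For ZNF100, ZNF345 and ZNF568 the tested probes had effects between 0.02 and 0.17. None of these was called.

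The corepressor machinery that KRAB proteins use was described by a list of 29 genes, all measured, with 45 tested probes. Of these 1 was called higher and 1 lower, 2.22% each, against 2.79% and 2.81% of all tested probes, which is close for so few probes. The median effect was -0.010. MORC2, an ATPase that works with the HUSH complex, rose by 0.41 ± 0.08 (adjusted p = 0.0517) and was higher in 6 of 6 lines. CBX5, which encodes HP1α, a reader of H3K9 methylation, fell by 0.55 ± 0.12 on the log2 scale (adjusted p = 0.0644) and was lower in all 6 lines. TRIM28 was at -0.11 ± 0.09, SETDB1 at 0.27 ± 0.08 (adjusted p = 0.126), ATF7IP2 at 0.24 ± 0.06 (adjusted p = 0.101) and DNMT1 at -0.25 ± 0.14 (adjusted p = 0.408). The probes of UHRF1, which guides DNMT1 to newly made DNA, were at -0.59 ± 0.20 and -0.28 ± 0.09, with adjusted p of 0.175 and 0.157. None of these 5 genes passed the threshold.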

How the data were processed

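The authors deposited 1 table of unnormalized probe intensity, with linear values summarised in GenomeStudio (version not given in the sources used here) and not scaled between arrays. A second deposited table holds log2 values made by the authors in GeneSpring GX. These values could be rebuilt within 0.000614 as log2 signal minus the 75th percentile of the array and the median of the probe. Intensities were corrected with limma normexp (offset 50), quantile-normalized and log2-transformed (R 4.3.3, limma 3.58.1). Probes with a mean above the 40th percentile were tested. Effects were fitted by lmFit and eBayes with 1 value per line and class means (4 residual degrees of freedom). In simulated data with 28394 probes, 96% of changes of 1 log2 unit and 61% of changes of 0.5 were recovered, and 10.8% of the calls were false. There the noise was independent, and each of 100 changed probes per size shifted by the same amount in all 6 lines. Called members were less even between lines, so these shares need not hold for them. Members were matched through gene numbers to the RefSeq gene table of GRCh38.p14, and updating symbols left the same 318 probes. The members and lists were chosen with earlier results of these data known. Genes were named by a rule: called members moving alike in every line, the smallest p-values of other contrasts, the widest untreated ranges and a fixed list. Groups of lines come from the design text of the series. Protein features could not be run, since no protein table was used here. No chip or date is given, so no batch was tested. The number of arrays limits the precision. Whether samples labelled as 1 line came from separate cultures is not stated.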

Additional observations from a re-analysis of the deposited data

Results flagged for a closer look

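In 4 results 1 line stood apart from the other 5 by Dixon's criterion, among 104 sets of 6 lines examined. Most of the probes examined were picked by their values in these same data. The usual rate of about 1 in 20 by chance therefore need not hold, and the flags are a description only. The D9 effect of ZNF14 was -0.11 in MOLM-14, against 0.50 to 0.80 in the other lines. The untreated level of ZNF626 was 8.90 in KG-1a, against 5.96 to 6.49. This probe was named for its wide untreated range, and its other 5 lines lay near the filter level of 6.16. The D9 effect of 1 ZNF93 probe was 0.37 in KG-1a, against 0.05 to 0.14. The D9 effect of ZNF224 was -0.51 in THP-1, against -0.26 to -0.12. The ZNF14 value belongs to a bright probe that moves with 6 others of the family, as described above.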

How the results depend on the processing

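The calls over the 6 lines varied with the lines included. Without 1 line in turn the calls higher were 0 to 15 and the calls lower 0 to 4, and the counts were 0 and 0 without Mono-Mac-1, where calls over all probes were 0.19% in each direction. They were 3 and 0 without TF-1, 2 and 2 without THP-1, 5 and 4 without KG-1a, 15 and 4 without MOLM-14, and 2 and 3 without MV-4-11. Calls over all probes were 0.933% and 0.863% without TF-1 and 1.49% and 1.58% without THP-1, against 2.79% and 2.81% with all 6 lines. Calls higher and lower were 0 and 0 with 1 µM arrays only, 5 and 5 with 5 µM arrays only, 4 and 4 with median scaling, 0 and 0 when lines were left unpaired, 21 and 24 with all arrays fitted and line as a block, and 1 and 1 at an adjusted p under 0.05. Over all probes the shares were 0.916% and 0.856% with 1 µM arrays only and 2.36% and 2.64% with 5 µM arrays only. With median scaling they were 1.48% and 1.66%. For the unpaired, block and 0.05 settings, and without KG-1a, MOLM-14 or MV-4-11, the shares over all probes are not given here. Those counts are therefore not read as a result about the members. Calls lower were 5 without background correction and 5 without the filter, where 2.25% and 1.42% of all probes were called lower. The authors' log2 values gave 10 and 11, with 3.06% and 4.14% of all probes called higher and lower. Leaving out the 7 bright probes, an alternative chosen after seeing the data, gave 7 and 8. All 18 called members kept their direction under the 14 alternatives run on them, and all 18 lost the call without Mono-Mac-1 and with 1 µM arrays only. The median effect stayed between -0.0087 and 0.0224. The call of 5 against 1 µM became 0 with an offset of 16, with median scaling and at an adjusted p under 0.05, 2 with no filter, and 0 to 2 without 1 line (2 without THP-1). The comparisons of sensitive with resistant lines gave 0 calls in all alternatives run. A gap of 500 kb gave 20 clusters with medians of -0.073 to 0.079. The cause of these changes was not tested, beyond the fewer lines in each fit. The labels give 1 replicate number throughout, so arrays were paired by line and not by number. Dim probes limit what can be seen: 65 member probes were not tested.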
